A study of Mus musculus with 24 samples.

Results

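The ADAMTS proteinases, the ADAMTS-like proteins, the matrix metalloproteinases (MMPs) and the tissue inhibitors of metalloproteinases (TIMPs) were followed through 4 H3K27ac peak lists from mouse limb buds. The genes were chosen by name: every protein-coding gene of the mm10 assembly whose symbol starts with Adamts, every gene named Mmp plus a number except Mmp13, and Timp1 to Timp4. The rule used no measured value. It gave 48 of 21887 protein-coding genes, namely 19 Adamts, 5 Adamtsl, 20 Mmp and 4 Timp genes. Peak-covered bp were then summed for each gene over its body plus 20 kb on each side, which is called the window here. Of the 48 genes, 42 (87.5%) had a peak in their window in at least 1 list, against 76.1% of all protein-coding genes.

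H3K27ac, the acetylation of histone H3 that marks active enhancers and promoters, was mapped by chromatin immunoprecipitation and sequencing. The study compared limb buds of control and Sox9-deficient embryos of stages E11.5 and E12.5 (days of embryonic development), to ask which epigenetic marks at the onset of cartilage formation depend on the transcription factor SOX9. The 4 groups, each with 1 library, were control embryos of either stage, Sox9null embryos of E11.5 and Sox9cKO embryos of E12.5. All 4 were whole limb buds immunoprecipitated with the same antibody. The sources used here do not give the alleles, the Cre driver of the conditional knockout, the strain, the number of embryos pooled, or whether forelimbs, hindlimbs or both were taken. Each stage has its own kind of Sox9 loss, so these cannot be told apart among the deficient samples.

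ADAMTS proteinases are secreted zinc enzymes that cut matrix proteins, mainly the large proteoglycans versican and aggrecan, procollagens and components of fibrillin microfibrils. The ADAMTS-like proteins share their ancillary domains, lack the proteinase domain, and associate with microfibrils. MMPs cut collagens, gelatin, proteoglycans and other proteins and are made as inactive precursors, and TIMPs block active MMPs and several ADAMTS enzymes. In the limb, versican cleavage is known from the regression of the interdigital web, and MMPs from the later invasion of cartilage by vessels and bone-forming cells.

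The lists held 36045 peaks over 52.0 Mb (control E11.5), 32821 peaks over 66.7 Mb (control E12.5), 28419 peaks over 59.7 Mb (labelled Sox9null) and 36937 peaks over 60.4 Mb (labelled Sox9cKO). Depth in reads is unknown, and median peak width ran from 1141 bp in control E11.5 to 1778 bp in the list labelled Sox9null. The names under which the Sox9-deficient lists were deposited are exchanged relative to their sample titles. Groups follow the titles here, each deficient list is called by its title's label, and stage-matched results are given both ways. The Sox9 gene body was covered over 96.6% and 81.3% of its length in the controls of E11.5 and E12.5, and over 55.8% and 54.3% in the lists labelled Sox9null and Sox9cKO. All 10 limb mesenchyme markers checked had peaks in at least 1 list, with summed coverage of 226 to 246 kb. Tbx5, the forelimb identity gene, was covered over 31.7 kb in control E11.5, 3.76 kb in control E12.5, 0 and 32.6 kb in the lists labelled Sox9null and Sox9cKO. With 1 library per group no difference was tested, and every value describes these libraries.

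In what follows, 4 values after a gene's name stand in this order: the control of E11.5, the control of E12.5, the list labelled Sox9null, the list labelled Sox9cKO. A gene end counted as marked where a peak lay within 1000 bp of either end of the gene in the gene table. A start is that of a RefSeq promoter, which can lie inside the gene table's ends, so the states of start and gene end can differ. The authors' score of a peak was used only to rank peaks within a list, and an upper percentage is the share of the list's peaks that scored at least as high. The most frequent score, 3100, is shared by 702 to 2772 peaks of a list, which all get the same rank. An upper percentage places a peak in its own list and is not compared between lists. Genes are compared with each other only by the percentage of their window that was covered.

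The promoters below are shown because they cover the range of states found: never marked, marked in every list, and marked in some lists. Each runs 250 bases before to 50 bases after the transcription start, 5′ to 3′ on the gene's strand, as given by RefSeq for GRCm38.p6 (mm10). Capitals mark matches to the letters TGANTCA (the AP-1 site), AACAAT or ATTGTT (a SOX-type site on either strand) and TATAAA or TTTATA (the TATA box). The first pair belongs to stromelysin genes of the Mmp cluster on chromosome 9 and had no peak in any list: Mmp3 at chr9:7445572-7445871, plus strand, and Mmp10 at chr9:7502092-7502391, plus strand.
Mmp3: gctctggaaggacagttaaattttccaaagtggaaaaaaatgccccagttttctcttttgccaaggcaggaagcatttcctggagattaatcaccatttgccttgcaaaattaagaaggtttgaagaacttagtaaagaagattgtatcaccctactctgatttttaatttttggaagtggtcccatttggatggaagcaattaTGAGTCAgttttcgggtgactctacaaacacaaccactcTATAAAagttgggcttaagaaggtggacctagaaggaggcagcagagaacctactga
Mmp10: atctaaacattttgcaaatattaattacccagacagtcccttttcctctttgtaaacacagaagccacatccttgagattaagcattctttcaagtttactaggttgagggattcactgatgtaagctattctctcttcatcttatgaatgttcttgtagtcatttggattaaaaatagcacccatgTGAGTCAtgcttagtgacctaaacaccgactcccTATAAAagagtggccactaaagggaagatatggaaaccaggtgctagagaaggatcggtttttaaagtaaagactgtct

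The next pair lay under a peak in all 4 lists: the membrane-type proteinase gene Mmp14 at chr14:54431348-54431647, plus strand, and the inhibitor gene Timp3 at chr10:86300162-86300461, plus strand. Neither holds any of these letters.
Mmp14: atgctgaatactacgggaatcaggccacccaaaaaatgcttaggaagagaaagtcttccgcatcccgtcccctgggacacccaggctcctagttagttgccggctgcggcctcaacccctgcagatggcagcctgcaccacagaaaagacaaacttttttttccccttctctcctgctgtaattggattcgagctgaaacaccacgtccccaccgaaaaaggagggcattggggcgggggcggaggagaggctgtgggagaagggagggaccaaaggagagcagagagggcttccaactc
Timp3: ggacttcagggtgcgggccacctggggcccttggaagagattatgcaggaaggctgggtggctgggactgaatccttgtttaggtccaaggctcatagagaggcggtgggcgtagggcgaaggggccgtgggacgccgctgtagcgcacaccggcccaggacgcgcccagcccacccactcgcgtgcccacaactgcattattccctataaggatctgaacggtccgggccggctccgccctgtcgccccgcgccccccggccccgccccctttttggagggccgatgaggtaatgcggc

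The last 4 were marked in some lists only. Timp1 (chrX:20869916-20870215, plus strand), Mmp25 (chr17:23645220-23645519, minus strand) and Adamts2 (chr11:50601835-50602134, plus strand) had a peak at the start in control E11.5 and the list labelled Sox9cKO alone. Adamts20 (chr15:94404301-94404600, minus strand) had such a peak in every list except the one labelled Sox9null. The SOX-type letters occur in the Timp1 and Mmp25 promoters and in neither of the others.
Timp1: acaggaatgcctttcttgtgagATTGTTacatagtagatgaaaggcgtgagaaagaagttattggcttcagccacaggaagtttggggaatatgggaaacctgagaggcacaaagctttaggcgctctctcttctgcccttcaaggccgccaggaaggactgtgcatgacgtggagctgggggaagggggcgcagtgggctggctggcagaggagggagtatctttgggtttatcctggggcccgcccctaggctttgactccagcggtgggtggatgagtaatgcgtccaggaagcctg
Mmp25: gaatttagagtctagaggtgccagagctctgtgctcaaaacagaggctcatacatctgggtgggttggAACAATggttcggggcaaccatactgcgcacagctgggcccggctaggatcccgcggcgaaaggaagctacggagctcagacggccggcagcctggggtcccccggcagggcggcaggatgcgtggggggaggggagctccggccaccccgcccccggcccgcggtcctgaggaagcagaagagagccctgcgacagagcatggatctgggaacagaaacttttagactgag
Adamts2: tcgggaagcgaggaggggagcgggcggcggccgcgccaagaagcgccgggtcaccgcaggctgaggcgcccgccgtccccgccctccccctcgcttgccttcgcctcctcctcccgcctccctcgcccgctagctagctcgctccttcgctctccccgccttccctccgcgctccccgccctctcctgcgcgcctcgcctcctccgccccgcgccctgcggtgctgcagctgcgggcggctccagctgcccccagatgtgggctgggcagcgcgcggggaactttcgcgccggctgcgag
Adamts20: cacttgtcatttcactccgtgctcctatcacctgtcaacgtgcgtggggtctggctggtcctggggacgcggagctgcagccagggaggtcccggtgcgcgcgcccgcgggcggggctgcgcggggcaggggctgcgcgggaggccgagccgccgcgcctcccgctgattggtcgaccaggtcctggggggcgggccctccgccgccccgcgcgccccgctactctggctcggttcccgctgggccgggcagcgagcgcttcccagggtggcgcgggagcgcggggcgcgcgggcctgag

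All 24 ADAMTS and ADAMTS-like genes, all 4 Timp genes and 14 of 20 Mmp genes had a peak in their window. Summed over the Adamts genes, coverage was 85.2 kb in control E11.5, 131 kb in control E12.5, 113 and 106 kb in the lists labelled Sox9null and Sox9cKO. The Adamtsl genes summed to 45.8, 95.8, 64.9 and 58.6 kb. The E12.5 control was the highest list for both sums, and the E11.5 control the lowest. Coverage was higher in control E12.5 than in control E11.5 for 16 of 19 Adamts genes and for 3 of 5 Adamtsl genes. Most of the rise of the Adamtsl sum between the controls lay at 1 long gene, Adamtsl1, covered over 12.53 and 51.1 kb. The Mmp genes differed less, with 47.7, 48.5, 48.4 and 52.2 kb, and the Timp genes gave 21.4, 28.8, 25.4 and 28.5 kb. Per length, the best covered windows were those of Adamtsl2 (23.7, 22.1, 21.1 and 32.0% covered), Adamts4 (23.3, 28.1, 29.0 and 25.4%), Adamtsl4 (19.1, 23.2, 23.0 and 22.7%) and Mmp14 (16.6, 20.2, 20.2 and 18.6%).

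**Figure D1:**
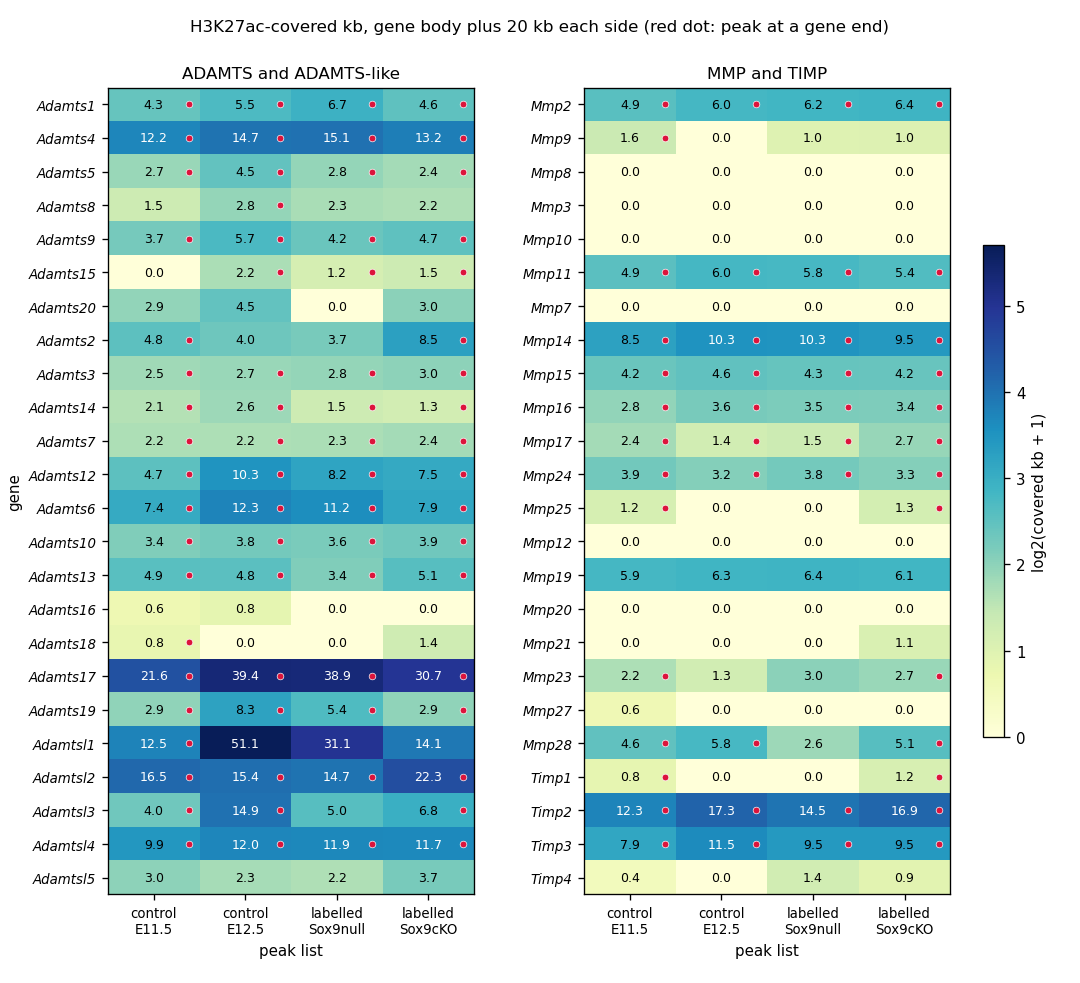
Covered kb of each of the 48 genes (rows) in each of the 4 peak lists (columns), printed in each cell and coloured on a log2(kb + 1) scale, with a red dot where a peak lies within 1000 bp of a gene end. Values are to be compared along a row, since windows differ in length, and 6 Mmp genes are at 0.0 in every list.

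Among the 7 proteoglycanases, Adamts1, Adamts4, Adamts5 and Adamts9 had a marked gene end in all 4 lists. Adamts1, an early versican-cleaving enzyme of developing tissues, carried its peak over the start, in the upper 4.78, 4.38, 2.77 and 7.94% of the lists. Its window was covered over 4.33, 5.50, 6.66 and 4.64 kb. Both values above 5 kb, those of control E12.5 and the list labelled Sox9null, include a second peak upstream of the start that the other lists lack. Adamts5, the main aggrecan-cleaving enzyme of mouse cartilage, was covered over 2.71, 4.52, 2.78 and 2.39 kb. Only the E12.5 control stood clear of the others there, and the deficient lists lay on either side of the E11.5 control. Adamts9, which cleaves versican in the interdigital web, was covered over 3.70, 5.65, 4.18 and 4.68 kb, highest in control E12.5 and lowest in control E11.5. The Adamts4 window was covered over 12.2, 14.7, 15.1 and 13.2 kb, but it holds 5 other genes, and 4 of its 5 regions touch an end of such a gene.

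The other proteoglycanases were marked in fewer places. Adamts15 and Adamts8 are neighbours on chromosome 9, 20.1 kb apart, so their windows share the peak at the end of Adamts15. Adamts15 was at 0 kb in control E11.5 and was covered over 2.24, 1.24 and 1.46 kb in control E12.5 and the lists labelled Sox9null and Sox9cKO. Its gene-end peak lay in the upper 54.4, 78.5 and 53.1% of those lists, so it was a peak of middle to low rank. Adamts8 was covered over 1.48, 2.81, 2.30 and 2.17 kb, and its own end was marked by a weak peak in control E12.5 alone (score 52.2, near the lowest score in the list).

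Adamts20, whose loss in mice gives a white belt through impaired melanoblast survival, had no peak at all in the list labelled Sox9null. Its window was covered over 2.89 kb in control E11.5, 4.48 kb in control E12.5, 0 and 3.03 kb in the lists labelled Sox9null and Sox9cKO. Each of its 3 regions was present in the other 3 lists. The strongest in the controls, chr15:94443127-94445858, lay 12.4 kb upstream of the start in the gene table, in the upper 50.5, 42.8 and 48.6% of control E11.5, control E12.5 and the list labelled Sox9cKO. The promoter printed above belongs to an internal start, and the middle of its peak lies 27.9 kb inside the gene, in the upper 56.7, 84.2 and 37.5% of those lists. The whole window was therefore marked at 3 separate places or at none, depending on the list.

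The procollagen N-proteinases, which remove the amino-terminal propeptide of fibrillar procollagens, each had a distinct pattern. Adamts3, the enzyme of procollagen II in cartilage, had 1 peak, over its start, and was covered over 2.51, 2.70, 2.82 and 2.97 kb. Both deficient lists lay above both controls for Adamts3, though the highest and lowest lists differ by less than 0.5 kb. Adamts14 was covered over 2.07, 2.57, 1.46 and 1.32 kb, so both deficient lists lay below both controls. Its start peak was present everywhere, and the difference came from an intronic region at chr10:61249224-61250508 that both controls held (in their upper 46.4 and 66.2%) and neither deficient list did.

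Adamts2, the main N-proteinase of procollagen I in skin, was covered over 4.80, 4.01, 3.67 and 8.53 kb. The list labelled Sox9cKO stood alone at the top, with 8 peaks in the window against 4, 2 and 2. The start peak at chr11:50601613-50602855 was found in control E11.5 and the list labelled Sox9cKO only, in their upper 43.8 and 44.9%. The 5 further regions of the list labelled Sox9cKO within the gene scored 94.4 or less and were in no other list. A region in the first part of the gene, 20.4 kb from the start, was marked in all 4 lists (in the upper 22.7, 23.6, 29.8 and 24.9%), so the gene was not unmarked where its start was.

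Adamts7 and Adamts12 cleave cartilage oligomeric matrix protein. Adamts7 held 1 peak, at a gene end, in every list, and was covered over 2.19, 2.20, 2.26 and 2.43 kb. Adamts12 was covered over 4.73, 10.3, 8.18 and 7.47 kb. Every region of Adamts12 that was shared by all lists was narrowest in control E11.5, and a region 113 kb from the start was in every list but that control. Adamts6 and Adamts10, a pair of paralogues that act on fibrillin microfibrils, had strong end peaks throughout. The Adamts10 peak lay in the upper 4.78, 4.38, 4.34 and 7.94% of the lists, and its window was covered over 3.39, 3.78, 3.57 and 3.93 kb. Adamts6 was covered over 7.42, 12.3, 11.2 and 7.90 kb, with control E12.5 and the list labelled Sox9null high and the other lists low.

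Adamts17, another microfibril-associated enzyme, was covered over 21.6, 39.4, 38.9 and 30.7 kb of a window of 353 kb. The window held 22 regions, of which 9 were marked in all lists, and the control E11.5 value was the lowest. Adamts19, its paralogue, was covered over 2.93, 8.29, 5.43 and 2.93 kb, with the same 2 lists at the bottom as for Adamts6. Its end peak was in all lists, and the difference lay mainly in regions outside the gene, the furthest of which touches an end of Minar2. Adamts13, which cleaves von Willebrand factor and is made mainly in liver, was covered over 4.94, 4.83, 3.39 and 5.07 kb, but its main peaks lie at ends of Rexo4 and Cacfd1, and its own start was marked only in the list labelled Sox9cKO, by a weak peak (score 52.8).

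The pair Adamts16 and Adamts18 was, per length, the least marked of the ADAMTS genes, with at most 0.745% of a window covered. Adamts16 was covered over 0.606 kb in control E11.5 and 0.816 kb in control E12.5, at different places, and had no peak in either deficient list. Both peaks ranked in the lowest 10% of their lists. Adamts18 was covered over 0.762 kb in control E11.5, where a weak peak lay at its start, and 1.43 kb in the list labelled Sox9cKO, where 2 weak peaks lay elsewhere, and it was at 0 in the other lists.

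Adamtsl1, which encodes punctin, has the longest window of the 48 genes (955 kb). The window was covered over 12.53 kb in control E11.5, 51.1 kb in control E12.5, 31.1 and 14.1 kb in the lists labelled Sox9null and Sox9cKO. Control E12.5 and the list labelled Sox9null were high, and the other lists low, at 1.31, 5.35, 3.26 and 1.47% of the window. Of its 35 regions, many of them in the right part of the gene, 12 were in control E12.5 alone, 7 in control E12.5 and the list labelled Sox9null alone, and 5 in all lists. The strongest region, chr4:86291589-86297467, was covered over 2100, 5756, 5358 and 2576 bp, in the upper 30.3, 10.6, 12.7 and 31.7% of the lists. A peak at the left end of the gene was found in control E11.5 alone (score 149).

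Adamtsl3 was covered over 3.98, 15.0, 5.04 and 6.80 kb, so the E12.5 control stood alone. Of its 12 regions, 7 were in control E12.5 alone, and these had low scores, from 52.4 to 166. When only the better-scored 50% of peaks was kept, the order of the controls at Adamtsl3 turned, and control E12.5 lay below control E11.5 (a difference of -1.45 kb). The peak at its start was missing from the list labelled Sox9null and lay in the upper 61.8, 57.3 and 38.9% of the others.

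Adamtsl2, whose human counterpart is mutated in geleophysic dysplasia, a short-stature disorder of microfibrils, was covered over 16.5, 15.4, 14.7 and 22.3 kb. The list labelled Sox9cKO was highest through 5 regions that no other list held, all with scores of 193 or less. Its start peak was in every list, as was the peak of Adamtsl4 at the end opposite its start. Adamtsl4 was covered over 9.87, 12.0, 11.9 and 11.7 kb, and its start was marked in every list but control E11.5, by peaks in the upper 80.9, 83.0 and 92.9%. Adamtsl5 was covered over 2.997, 2.34, 2.18 and 3.68 kb and had no peak at its own ends in any list.

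**Figure D2:**
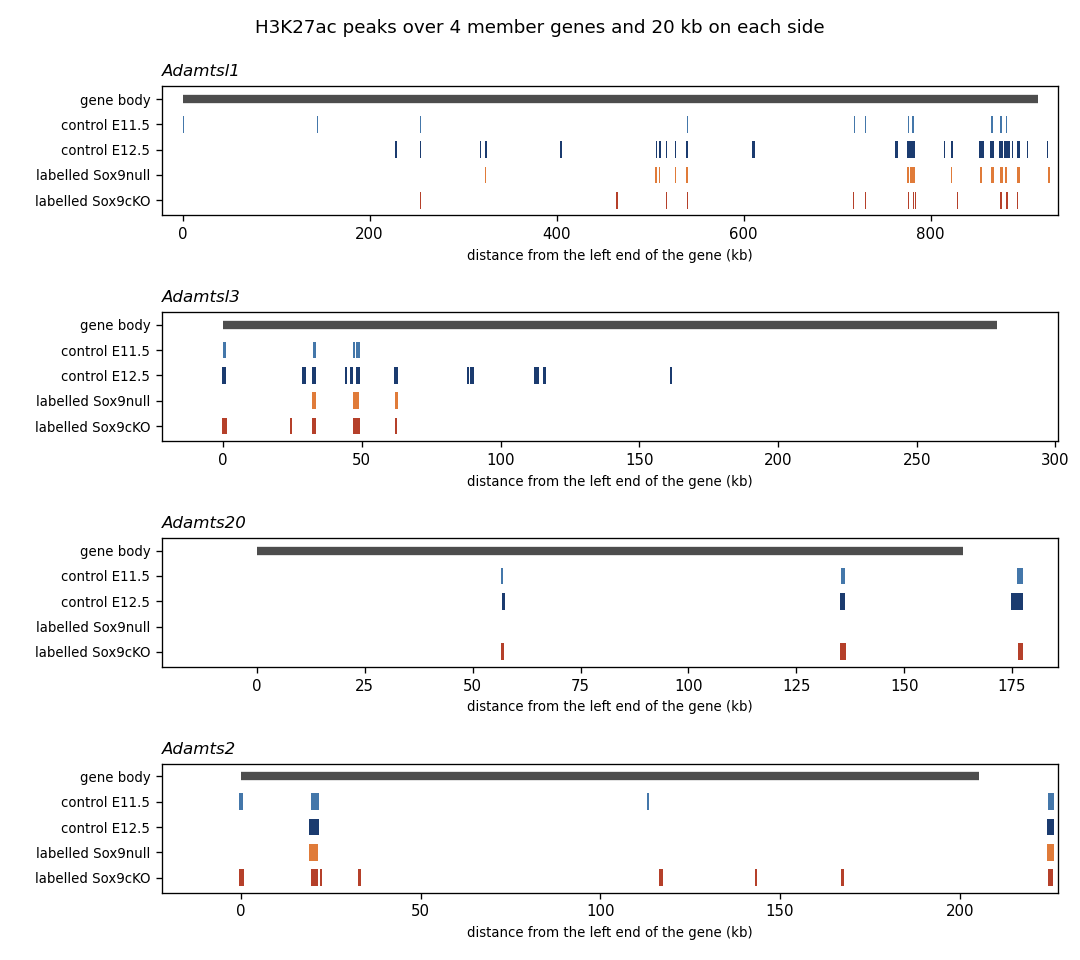
Peaks of the 4 lists over Adamtsl1, Adamtsl3, Adamts20 and Adamts2, plotted by distance in kb from the left end of the gene, with the gene body as a grey bar and the narrowest peaks drawn at a minimum visible width. Adamtsl1 and Adamtsl3 have the most peaks in control E12.5, Adamts20 has none in the list labelled Sox9null, and the peak at the left end of Adamts2 is in control E11.5 and the list labelled Sox9cKO alone.

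The Mmp genes fell into a marked and an unmarked set. The unmarked set is the cluster on chromosome 9 from Mmp12 to Mmp7 (chr9:7344397-7699585, 355 kb), which holds 9 Mmp genes, 7 of them followed here: Mmp12 (macrophage elastase), Mmp3 and Mmp10 (stromelysins), Mmp8 (neutrophil collagenase), Mmp27, Mmp20 (the enamel proteinase enamelysin) and Mmp7 (matrilysin). The whole span held 1 peak in control E11.5, of 0.561 kb and score 59.5 beyond the end of Mmp27, and none in the other lists. Mmp3, Mmp7, Mmp8, Mmp10, Mmp12 and Mmp20 were thus at 0 in every list, the only ones of the 48 to be so. Coverage of 0 means that no peak was called and sets no limit on weaker signal, since the reads behind the lists were not used here.

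The gelatinases differed from each other. Mmp2, a gelatinase of mesenchyme, was covered over 4.94, 5.97, 6.17 and 6.36 kb, and the peak at its left end lay in the upper 5.28, 6.02, 6.65 and 7.94% of the lists. Mmp9, the gelatinase of osteoclasts and leukocytes, was covered over 1.56, 0, 0.978 and 1.03 kb. Its own end was marked only in control E11.5 (score 62.8), and its other region touches an end of Slc12a5. Mmp11, a stromelysin that furin-type enzymes activate inside the cell, was covered over 4.91, 5.96, 5.81 and 5.37 kb with both ends marked in every list, though Smarcb1 and Chchd10 end at the same places.

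All 6 membrane-type MMP genes had peaks, and 5 of them had a marked gene end in all 4 lists. Mmp14, the cell-surface activator of MMP2 and a collagenase in its own right, had a start peak at chr14:54429585-54434441, at the most frequent score of 3100 in every list. Its window was covered over 8.45, 10.3, 10.3 and 9.47 kb, and each list held the same 4 regions. Mmp15 (4.17, 4.56, 4.30 and 4.24 kb) and Mmp16 (2.84, 3.62, 3.52 and 3.44 kb), the transmembrane enzymes closest to it, were marked at the start or gene end throughout, with little spread between lists. Mmp24 was covered over 3.89, 3.24, 3.82 and 3.27 kb, but its CpG-rich start had no peak in any list, and its regions shared by all lists lie at ends of Eif6 and BC029722.

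The membrane-type genes with a lipid anchor, Mmp17 and Mmp25, shared another pattern. Mmp17 was covered over 2.42, 1.35, 1.49 and 2.73 kb, the low lists being control E12.5 and the one labelled Sox9null. Mmp25, first described in leukocytes, was covered over 1.23 kb in control E11.5 and 1.29 kb in the list labelled Sox9cKO and was at 0 in the others. Its 1 peak lay at the start, in the upper 59.2 and 48.9% of those lists, and also touches an end of Bicdl2, which overlaps Mmp25 in the annotation.

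Of the other MMP genes, Mmp19 was covered over 5.91, 6.29, 6.40 and 6.14 kb without a peak at its own ends, the stronger region lying at ends of Tmem198b and Dnajc14. Mmp23, a membrane-anchored enzyme, was covered over 2.23, 1.35, 3.04 and 2.66 kb, and its start had no peak in control E12.5. In the list labelled Sox9null that peak was among the weakest (upper 99.5%) and did not reach the end in the gene table, so the gene end counted as unmarked there. Mmp28 (epilysin) was covered over 4.63, 5.84, 2.59 and 5.06 kb. The list labelled Sox9null stood alone at the bottom and kept only the region at an end of Taf15. Mmp21 had 1 region, 12.7 kb upstream of its start, in the list labelled Sox9cKO alone (1.12 kb, score 115).

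Of the 4 inhibitors, Timp2 and Timp3 were marked throughout and Timp1 and Timp4 weakly. Timp2, which also takes part in the activation of MMP2 by MMP14, was covered over 12.3, 17.3, 14.5 and 16.9 kb, and its start peak lay in the upper 5.62, 5.51, 8.62 and 7.94% of the lists. Timp3, the inhibitor bound to the matrix and the main one of ADAMTS enzymes, was covered over 7.94, 11.54, 9.53 and 9.50 kb with its start marked throughout. Neither gene separated the groups, since both deficient lists lay between the controls. Timp1 was covered over 0.788 kb in control E11.5 and 1.19 kb in the list labelled Sox9cKO, by a start peak in their upper 61.6 and 65.6%, and was at 0 in the others. Timp4 was covered over 0.410, 0, 1.37 and 0.898 kb by 1 region 19.5 kb upstream of its start. Timp1, Timp3 and Timp4 overlap Syn1, Syn3 and Syn2 in the annotation, and Timp2 overlaps Cep295nl, so a peak in the shared part cannot be given to either gene.

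The comparison of both Sox9-deficient lists with both controls asks which genes are marked less or more without SOX9, and it does not depend on which deficient list is which. Of the 42 genes with a peak, 2 were covered by less in both deficient lists than in both controls, against 6.39% of all genes with a peak. These were Adamts14 (mean difference of -0.93 kb) and Adamts16 (-0.71 kb). Another 5 were covered by more in both deficient lists, against 16.1% of all genes: Adamts3, Adamts7, Mmp2, Mmp23 and Timp4, by 0.29, 0.15, 0.81, 1.06 and 0.93 kb. Both shares, 4.76% and 11.9%, lie below those of all genes. A smaller number of marked cells and less marking in each cell cannot be told apart in these bulk samples.

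The median difference between the deficient and the control mean was 0.187 kb over the 42 genes, 27 higher and 15 lower. Over all 16663 genes with a peak it was 0.118 kb, with 10248 higher, 6399 lower and 16 equal. The window lengths of all genes are not given here, so the size of these medians in kb cannot be compared. The median of the 42 genes turned to -0.0288 kb with 5 kb flanks and to -0.0518 kb with 100 kb flanks. It was -0.246 kb without control E11.5, -0.041 kb without the list labelled Sox9cKO, and 0.627 kb without control E12.5. Leaving out control E11.5 also brought the genes covered by less from 2 to 21, and leaving out control E12.5 brought those covered by more from 5 to 25. Without the list labelled Sox9null, 15 genes were covered by more, and without the list labelled Sox9cKO, 8 were covered by less. With 1 list fewer the rule is easier to meet for any gene. The share of all genes under it is not given here, so these counts show nothing particular to these genes. Of the named genes, Adamts3, Adamts7 and Mmp2 turned in sign with 100 kb flanks, and Adamts16 and Timp4 had no peak among the better-scored 50% of any list.

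The comparison of the controls asks how the marking differs between stages where Sox9 is intact. Coverage was higher in control E12.5 for most of the genes: the median difference was 0.635 kb, with 28 higher, 13 lower and 1 equal. Over all 16663 genes with a peak it was 0.11 kb, with 9373 higher, 6913 lower and 377 equal. A difference in kb can grow with window length, which is not given here for all genes, so the size of these medians cannot be compared. At least 2-fold higher in control E12.5, with at least 1 kb in the higher list, were Adamts15, Adamts12, Adamts19, Adamtsl1 and Adamtsl3, which is 5 of 42, against 5.13% of all genes. For Adamtsl1 the ratio was 4.08, for Adamtsl3 3.76, for Adamts19 2.83 and for Adamts12 2.17, while Adamts15 had no peak at E11.5. All 5 encode ADAMTS or ADAMTS-like proteins. Mmp9 and Mmp25, which had no peak in control E12.5, were the 2 genes at least 2-fold lower, against 4.03% of all genes. Total covered length also differed (52.0 Mb at E11.5 and 66.7 Mb at E12.5), and after scaling to these totals 4 genes were at least 2-fold higher and 4 lower. The shares of all genes after this scaling are not given here.

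Within the stage-matched pairs by sample title, coverage was at least 2-fold higher in the list labelled Sox9null than in control E11.5 for Adamts15, Adamtsl1 and Timp4 (3 genes, against 3.31% of all genes). It was at least 2-fold lower for Adamts20 and Mmp25 (2 genes, against 5.5%). In the list labelled Sox9cKO, coverage was at least 2-fold higher than in control E12.5 for Adamts2, Adamts18, Mmp9, Mmp17, Mmp25, Mmp21 and Timp1 (7 genes, against 6.65%). It was at least 2-fold lower for Adamts19, Adamtsl1 and Adamtsl3 (3 genes, against 3.67%). Of the 7 higher genes, 5 had no peak in control E12.5, and the ratios of the other 2 were 2.13 (Adamts2) and 2.02 (Mmp17).

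With the deficient lists exchanged, as their deposited names have it, the list labelled Sox9cKO was set against control E11.5. Only Adamts15 and Mmp21 were then at least 2-fold higher (2 genes, against 3.28% of all genes), and no gene was at least 2-fold lower (against 0.882%). The list labelled Sox9null against control E12.5 gave Mmp23 and Timp4 as higher (2 genes, against 1.4%) and Adamts20, Adamtsl3 and Mmp28 as lower (3 genes, against 3.64%). Adamts15 is the only gene called higher at E11.5 under both assignments, and Adamtsl3 the only gene called lower at E12.5 under both. Each call rests on the same control value under both assignments, which for Adamts15 is 0 kb. With only the better-scored 50% of peaks, Adamtsl3 was no longer lower in the list labelled Sox9cKO than in control E12.5. The size of the Adamtsl1 differences hangs on the labels, and their signs do not: by title it was 18.6 kb above control E11.5 and lower than control E12.5 (a difference of -37.05 kb), and with the lists exchanged it was 1.53 kb above and again lower (a difference of -20.0 kb).

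Across the genes, the lists paired in another way than the sample titles do. Under the deposited names, control E12.5 and the list labelled Sox9null are the lists of E12.5. Control E11.5 and the list labelled Sox9cKO are then those of E11.5, and which naming is right is not known. Coverage was higher in control E12.5 and the list labelled Sox9null than in both other lists for 16 of 42 genes (38.1%), against 20.5% of all genes. These were Adamts1, Adamts4, Adamts5, Adamts6, Adamts8, Adamts12, Adamts17, Adamts19, Adamtsl1, Adamtsl4, Mmp11, Mmp14, Mmp15, Mmp16, Mmp19 and Timp3. After scaling to the covered length of each list the number was 7. The share of all genes after the same scaling is not given here, so whether the excess over all genes remains is unknown. Those 2 lists also had the widest peaks of all genes (medians of 1707 and 1778 bp, against 1141 and 1332 bp).

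Coverage was higher in control E11.5 and the list labelled Sox9cKO than in both others for 9 of 42 genes (21.4%), against 27.6% of all genes: Adamts2, Adamts13, Adamts18, Adamtsl2, Adamtsl5, Mmp9, Mmp17, Mmp25 and Timp1. Of 5 marker lists of other cell types, 3 had their higher sums in these same lists. The 6 endothelial markers summed to 15.0, 10.6, 11.9 and 15.9 kb, with peaks at 5, 4, 3 and 5 of them. Among these, Tie1 was at 0 in control E12.5 and the list labelled Sox9null, Tek ran the other way (0.748, 2.72, 3.51 and 1.85 kb), and Emcn was at 0 in all. Kdr (1.48, 0.738, 0 and 0.692 kb) was lower in the list labelled Sox9cKO than in control E12.5. The 5 muscle markers summed to 6.16, 3.48, 2.48 and 10.55 kb. Pax3 and Myf5 were at 0 in control E12.5 and the list labelled Sox9null, Pax7 had peaks in the list labelled Sox9cKO alone (1.55 kb), and Myod1 was at 0 in all. Myog did not pair this way (2.41, 3.48, 2.48 and 2.54 kb). It was highest in control E12.5 and the only muscle marker with a peak there and in the list labelled Sox9null. The 6 erythroid markers summed to 17.7, 8.71, 11.3 and 22.5 kb, with Tal1 at 0 in control E12.5 and the list labelled Sox9null and Hbb-bt at 0 in all. Gata1 (1.82, 1.01, 2.06 and 2.15 kb) and Klf1 (4.02, 3.87, 4.45 and 4.93 kb) were higher in the list labelled Sox9null than in control E11.5. The other 2 marker lists did not pair this way. The 6 myeloid markers summed to 14.2, 18.1, 18.6 and 18.04 kb. Of them, Ptprc was covered most in control E12.5 and the list labelled Sox9null (0.581, 4.97, 6.15 and 2.43 kb), Csf1r was at 0 in those lists, and Adgre1 and Lyz2 were at 0 in all. The 6 surface ectoderm markers summed to 11.7, 18.5, 11.03 and 14.4 kb, with Krt14 at 0 in all. The part of these cell types in the coverage of Mmp9, Mmp25, Timp1 and the other genes was not tested. The limb marker Tbx5 was also covered mainly in control E11.5 and the list labelled Sox9cKO (31.7, 3.76, 0 and 32.6 kb). Tbx4 and Pitx1 did not pair this way, and the part of limb type was not tested either.

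The marking of gene ends differed between the same lists. A peak lay at an end of 33 of the 48 genes in control E11.5 (against 56.9% of all genes), 28 in control E12.5 (53.3%), 25 for Sox9null (51.9%) and 31 for Sox9cKO (57.7%). For 24 genes it was there in all lists (against 50%) and for 13 in none (39.9%). The other 11 differed. Adamts2, Mmp23, Mmp25 and Timp1 had it in control E11.5 and the list labelled Sox9cKO alone (4 genes, against 2.81%), and no gene had it in the other 2 lists alone (against 0.201%). Adamtsl3 and Mmp28 lacked it in the list labelled Sox9null alone (2 genes, against 1.66%), and Adamts15 in control E11.5 alone (1 gene, against 0.411%). Adamts18, Adamtsl1 and Mmp9 had it in control E11.5 alone (3 genes, against 1.2%) and Adamts8 in control E12.5 alone (1 gene, against 0.42%). The strand is known for 33 genes with a RefSeq promoter: 20, 16, 14 and 21 of them had a marked start, and 7, 6, 6 and 7 a marked opposite end.

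Taken as regions (peaks of all lists merged), the windows held 209, of which 42 lay at an end of the member gene, 105 elsewhere in its body and 62 outside it. A share of 38.3% was marked in all lists, beside 40.1% of all 49361 regions. Regions found in control E12.5 alone made up 15.8% of those in the windows (33 regions) beside 8.71% of all, with 12 at Adamtsl1 and 7 at Adamtsl3. Regions in control E12.5 and the list labelled Sox9null alone made up 6.22% (13 regions) beside 3.68%, with 7 at Adamtsl1 and 3 at Adamts17. Both controls alone shared 4 regions (1.91% beside 1.64%), at Adamts14, Adamts13, Mmp28 and Timp2, and no region was in both deficient lists alone (beside 1.15% of all).

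The promoters of the marked and unmarked genes differed in base composition. The 36 RefSeq promoters of 33 member genes had a median ratio of observed to expected CpG of 0.678 where the start was marked in all lists (12 promoters), 0.712 where it was marked in 1 to 3 lists (11) and 0.188 where it was marked in none (13). The same medians over all genes were 0.794, 0.563 and 0.201. Among the unmarked, Mmp24 (0.918) and Adamtsl5 (0.757) were CpG-rich, and the chromosome 9 cluster genes ran from 0 to 0.345. All unmarked promoters except those of Adamtsl5, Mmp21, Mmp24 and Timp4 belong to this cluster, with Mmp7 and Mmp12 entered more than once. The unmarked median therefore rests mainly on 1 cluster. Adamts12 (0.253) and Adamtsl2 (0.275) were CpG-poor and still marked in every list.

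The letters TGANTCA, searched on both strands, occurred in 5 of the 13 unmarked promoters (38.5%) and in no marked member promoter, beside 10.99% of all unmarked promoters and 6.99% of all promoters. The 5 belong to Mmp3, Mmp7, Mmp10, Mmp12 and Mmp20, which arose by tandem duplication and so are not independent. TATAAA occurred in 7 of the 13 (53.8%, beside 21.9% of all unmarked promoters), all but Mmp21 from the chromosome 9 cluster and so not independent either. It also occurred in 2 of the 12 promoters marked in all lists, those of Adamts1 and Adamtsl2. AACAAT occurred in 4 of the 36 promoters (11.1%, beside 9.05% of all): Timp1, Mmp25 and both entries of Mmp7. A match describes letters in a 300-base stretch and does not show that a factor binds there.

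**Figure D3:**
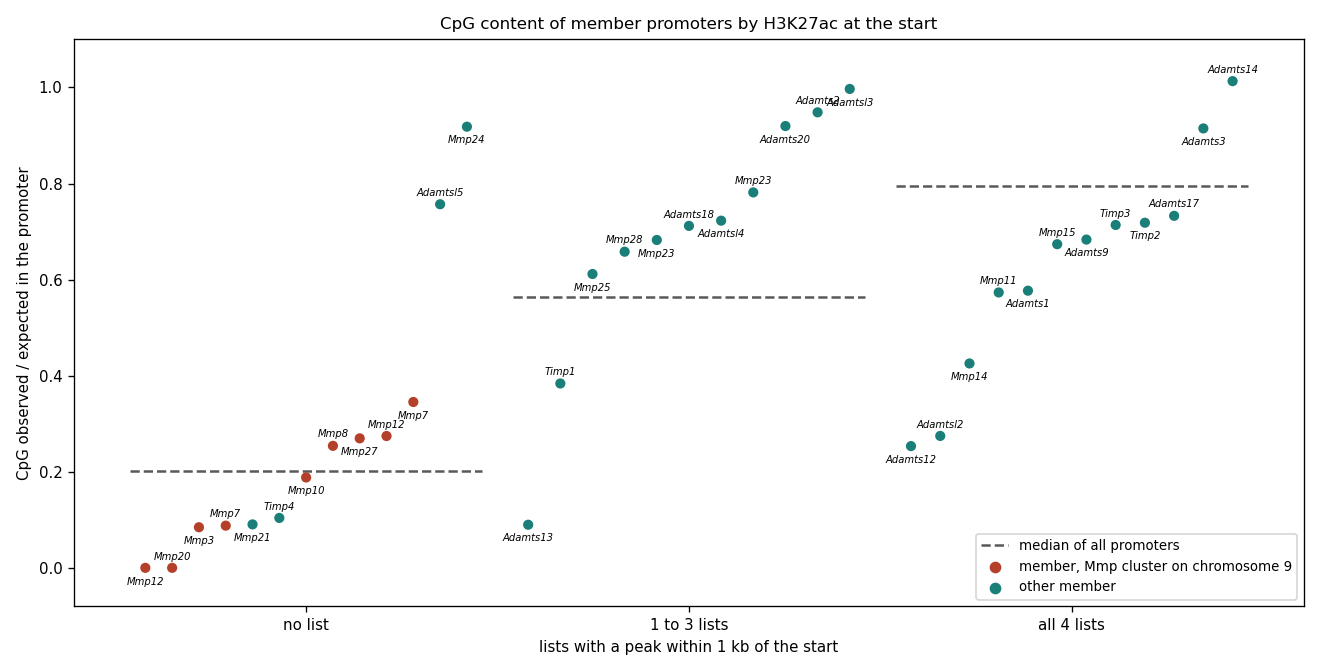
Ratio of observed to expected CpG in the promoters of member genes (points), by the number of lists with a peak within 1000 bp of the start, with the median of all promoters in each class as a dashed line. Promoters of the Mmp cluster on chromosome 9 lie at 0.345 or lower, all in the unmarked class, where Mmp24 and Adamtsl5 stand apart at 0.918 and 0.757.

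Other genes of matrix remodelling, 40 in all, were listed as substrates, cofactors, activators and related proteinases, and 38 of them had a peak. Covered by less in both deficient lists were 2 of the 38, Fbln2 (16.3, 21.3, 15.8 and 14.1 kb), a fibulin that binds versican, and Tll1 (1.96, 2.17, 1.27 and 1.18 kb), a procollagen C-proteinase of the tolloid family. Covered by more were 5: Ncan, Fn1, Ltbp2, Pcsk5 and Pcsk6. Both shares lie below the 6.39% and 16.1% of all genes. Pcsk6, a furin-like convertase that activates proenzymes, was covered over 12.55, 14.0, 24.5 and 23.3 kb, or 5.50, 6.12, 10.7 and 10.2% of its window. Pcsk5, a convertase of the same family, was covered over 6.31, 5.16, 8.95 and 7.33 kb, or 1.42, 1.16, 2.01 and 1.65%. Fbn2 (fibrillin 2) and Vcan (versican) were covered by less on average in the deficient lists, by differences of -6.70 and -2.51 kb. For both this came from control E12.5, at 26.3 and 17.6 kb, and control E11.5 lay below both deficient lists.

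Between the controls, 5 of the 38 were at least 2-fold higher at E12.5 (Vcan, Dcn, Fbn2, Ltbp1 and Adam12), against 5.13% of all genes, and none was lower, against 4.03%. In the pairs by title, 2 were at least 2-fold higher in the list labelled Sox9null (Dcn and Ltbp1, against 3.31% of all genes) and none lower (against 5.5%). In the list labelled Sox9cKO, 1 was higher (Acan, aggrecan, against 6.65%) and 2 were lower (Fbn2 and Ltbp1, against 3.67%). With the deficient lists exchanged, Dcn and Comp were higher (against 3.28%) and Papln was lower (against 0.882%) than in control E11.5. Compared with control E12.5, none was then higher (against 1.4%) and Fbn2 and Adam33 were lower (against 3.64%). Dcn at E11.5 and Fbn2 at E12.5 were thus called under both assignments, each against the same control, and Ltbp1 and Acan by title alone. Versican is a shared substrate of the enzymes of Adamts1, Adamts5, Adamts9, Adamts15 and Adamts20. Its gene was covered over 5.56 kb in control E11.5, 17.6 kb in control E12.5, 9.25 and 8.85 kb in the lists labelled Sox9null and Sox9cKO. Ltbp1, a latent TGF-beta binding protein of microfibrils, was covered over 7.77, 25.3, 23.5 and 11.2 kb, and its high and low lists were those of Adamtsl1.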

How the data were processed

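Peak lists of 4 H3K27ac libraries were used, and the other 20 libraries (other histone marks, inputs) were not analysed here. The authors deposited 1 list per sample, with a score for each peak whose definition no file header gives. It served only for ranks and thresholds inside each list. The submitters' processing notes name the build mm10, CASAVA 1.8 and deepTools, and MACS stands in the peak names. The sources used here do not give its version and settings, the aligner or any use of an input library. With the reads not used, peak number, width and covered length may move with depth, which is unknown.

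Peaks were merged within a list and their bp summed over each gene of the RefSeq table plus 20 kb on each side. A ratio was called at 2-fold or more with at least 1 kb in the higher list. The strand comes from the RefSeq promoter table (33 of 48 genes). Every gene chosen may be named, in full where the controls and deficient lists do not overlap, a 2-fold rule is met, the gene-end state differs, or the gene is among the best covered of its class. The genes, gene lists and rules were chosen with earlier results of these data known. A planned search for protein motifs was not run. Python 3.11.15, numpy 2.4.6, pandas 2.3.3 and matplotlib 3.10.9 were used, and the counting was tested on simulated data. The alternatives were other peak sets, flanks, folds, gene-end rules and scalings, the exchanged lists, and leaving out each list.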

Additional observations from a re-analysis of the deposited data

Results flagged for a closer look

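By sample title, 2 genes were covered by more at one stage and by less at the other in the Sox9-deficient list, and neither difference between stages was tested. Adamtsl1 was higher in the list labelled Sox9null than in control E11.5, by 18.575 kb, and lower in the list labelled Sox9cKO than in control E12.5 (a difference of -37.05 kb). Mmp25 went the other way, with a difference of -1.229 kb from control E11.5 and 1.285 kb from control E12.5. Each group is 1 library. With the lists exchanged, the differences were 1.53 and -20.0 kb for Adamtsl1, which kept both signs at smaller sizes, and 0.056 and 0 kb for Mmp25, which kept neither.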

How the results depend on the processing

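No value here has replicate error, and depth in reads limits what a missing peak can show. Alternatives were compared by whether a count stayed within 1.5 times and whether a median or a sign stayed the same. Counting the opposite gene end separately and every alternative for the lists paired otherwise than labelled were added after the data were seen. No paired analysis was possible because each group has 1 library and no test was made.

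With only the better-scored 50% of each list, 3 genes were covered by more in both deficient lists, the median difference was 0.0905 kb (0.027 kb for the remodelling partners, turned in sign), 4 genes and 1 partner were at least 2-fold lower in control E12.5, and in the list labelled Sox9null 0 were higher and 4 lower. Mmp2 turned to -0.0535 kb, and Adamtsl3 to -1.45 kb between controls and 3.02 kb in the list labelled Sox9cKO. With the same number of top peaks, the median was 0.225 kb (-0.152 kb for partners), 1 partner was covered by less and 3 by more, and 1 gene was lower in control E12.5.

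With 5 kb flanks, the genes covered by less were 4 and those by more 2 (partners by more, 2), the median turned to -0.0288 kb (-0.104 kb for partners), 1 gene was lower in control E12.5, and Mmp2 turned to -0.09 kb. With 100 kb flanks, 5 partners were covered by less, the medians turned to -0.0518 kb and 0.124 kb (partners), 0 genes were lower in control E12.5, 1 was lower in the list labelled Sox9null and 1 higher in the list labelled Sox9cKO. Adamts3 turned to -0.124 kb, Adamts7 to -0.8 kb, Mmp2 to -1.28 kb, and Adamts20 to 1.44 kb in the list labelled Sox9null.

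Scaled to each list's covered length, 5 genes and 5 partners were covered by less, the medians were 0.104 kb and -0.164 kb (partners), 4 genes were lower in control E12.5, and 7 were higher in control E12.5 and the list labelled Sox9null. With the deficient lists exchanged, 0 genes were lower at E11.5 and 2 higher at E12.5. Adamts20 turned to 0.14 kb and Mmp25 to 0.056 kb at E11.5, and Adamts2 to -0.34 kb at E12.5. At 1.5-fold, 11 genes and 10 partners were higher and 4 genes and 1 partner lower in control E12.5, 9 were higher and 5 lower in the list labelled Sox9null, and 7 were lower in the list labelled Sox9cKO.

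Leaving out 1 list at a time, genes covered by less ran from 3 to 21 and by more from 8 to 25, and the median from -0.246 to 0.627 kb. For partners these were 4 to 16, 7 to 19 and -0.294 to 0.246 kb. These counts stand without a share of all genes, and the rule is easier to meet with 1 list fewer. Starts alone were marked in 20, 16 and 14 genes (the controls of E11.5 and E12.5 and the list labelled Sox9null), and opposite ends in 7, 6, 6 and 7, since only 33 genes have a known strand. For these summary results, 61 alternatives moved the value and 7 turned its sign. The other 83 alternatives left it within those bounds, Mmp1a and Mmp1b included. For single named genes, 119 alternatives kept the call, 58 lost it and 11 turned the sign. The cause of these changes was not tested.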
